A study of Caenorhabditis elegans with 18 samples.

Results

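Late first-stage (L1) larvae of Caenorhabditis elegans that had eaten for 12 h and were then kept without food for 3 h were compared with newly hatched L1 larvae kept without food for their first 3 h. The comparison used the sample deposited for each of these conditions, 2 of the 18 in the series, chosen by their labels because the time without food was equal and the age was not. All animals were of the wild-type strain N2, in 10 ml S-complete cultures of 10000 larvae at 20 °C, with hatching spread over 2.5 h and E. coli HB101 at 25 mg/ml as the food. The late larvae hatched into food, ate it for 12 h and were collected 15 h after hatching, and the newly hatched larvae met no food at all. Fed cultures at 15 h, 12 h and 3 h are used here only to place these 2 samples. So are newly hatched larvae held in M9 buffer in place of S-complete, and the remaining conditions. The fed 15 h larvae are labelled L1-L2 and the late starved larvae L1, so stage and food differ together between them.

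A worm that hatches without food stops in L1 arrest, with no postembryonic cell division or moult until it eats. The arrest depends on DAF-16/FoxO, a transcription factor held in check by the insulin receptor DAF-2, and during it metabolism turns to stored lipid and stress-protective genes are raised. A fed L1 larva instead divides its blast cells and, late in the stage, builds the cuticle of the next stage under the epidermis before shedding the old one. Removing food from such a larva therefore meets an animal that has already eaten, grown and begun moult synthesis.

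Expression was measured on 1-colour Affymetrix arrays from 100 ng of RNA, 3 arrays for each condition. The authors deposited 1 mean intensity for each condition and probe set, with values under 5 set to 5, and a value written with ± below is that mean with its deposited error. The single arrays' values are not used here, and whether the deposited errors hold the spread between the 3 cultures is not stated. Of 22548 worm probe sets, 12018 were detected in starved late larvae and 11800 in starved newly hatched larvae, at the authors' detection threshold of 1e-10, and median intensities were 36.79 and 35.95 in that order of conditions. All 3 arrays of the late larvae were hybridized on 1 day, which the newly hatched starved arrays, spread over 3 other days, did not share, so hybridization day and age cannot be told apart. RNA came from whole animals, so fewer cells of a type and less RNA per cell cannot be told apart either.

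After an equal 3 h without food, late and newly hatched larvae differed in genes of the cuticle, the proteasome, histones, detoxification and lipid metabolism. A probe set was called when the p in the authors' deposited table, adjusted by Benjamini-Hochberg over all worm probe sets, was below 0.05. There were 1353 such calls in the authors' deposited table (6% of those tested). Of these, 691 were higher in late larvae (3.06%) and 661 were lower (2.93%), and the remaining 1 had equal means at the floor of 5. A difference of at least 2-fold was also required in a stricter count, which left 437 higher (1.94%) and 337 lower (1.49%). Over all worm probe sets the median log2 ratio, late over newly hatched, was 0.00. The calls rest on the deposited p-values: recomputing the test from the deposited means and errors with 4 degrees of freedom called 0 probe sets, although 5116 had an unadjusted p under 0.05. The deposited p also left out some of the widest gaps, since 60 of 785 probe sets with a difference of at least 4-fold and detection in the higher condition had a deposited p of 1. One is the collagen gene col-41, at 2029 ± 357 in late larvae and at the floor of 5 in newly hatched larvae, named here after its values were seen.

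**Figure D1:**
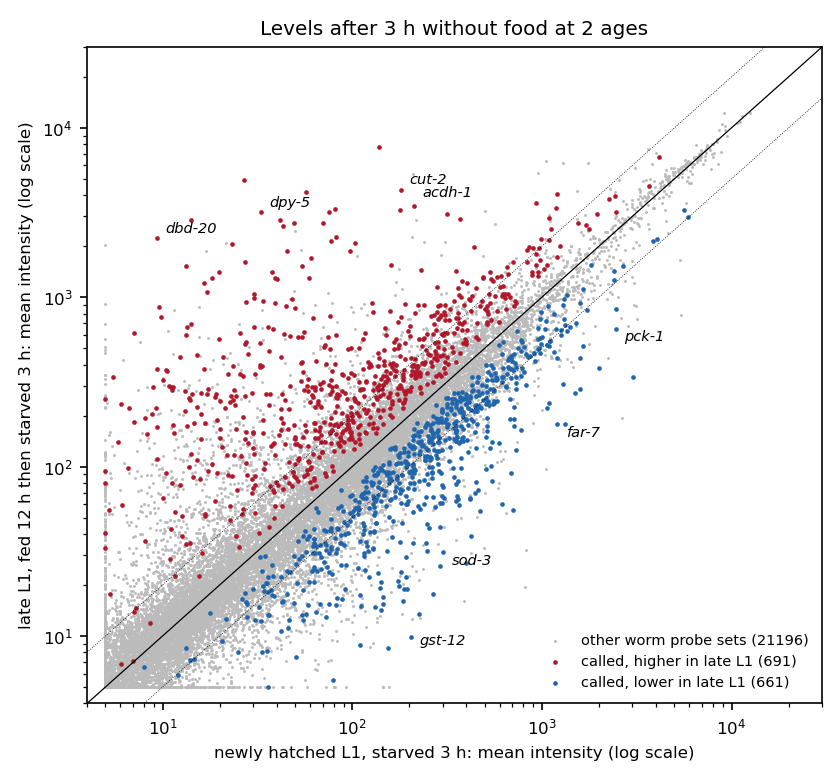
Mean intensity in late L1 larvae fed 12 h then starved 3 h (vertical axis) against newly hatched L1 larvae starved 3 h (horizontal axis), both on log scales, 1 point per worm probe set. The solid line marks equality and the dotted lines 2-fold, and the 691 called higher (red) reach much further from the line than the 661 called lower (blue).

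The genes furthest above the line in late larvae included collagens, hedgehog-related genes, an astacin protease and abu genes. The 15 named genes with the largest ratios among those called were dbd-20, tag-297, dpy-5, nas-38, grd-14, grl-1, abu-7, col-109, abu-15, lgc-21, phat-2, abu-14, wrt-8, abu-10 and idpp-12. All 15 were detected in late larvae and none in newly hatched larvae, so each fold is a lower bound. It was computed against the lowest mean of any detected probe set in newly hatched larvae, 21.95, or the gene's own mean where higher, and in late larvae that lowest mean was 20.3. Because of that bound the order within the 15 carries no information.

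The collagen gene dpy-5, needed for normal body length, averaged 3205 ± 511 in late starved larvae and 33.2 ± 10.4 in newly hatched starved larvae, at least 96.5-fold higher (adjusted p = 0.016 from the authors' deposited table). It was at 1459 ± 344 in larvae fed for 15 h, at 4717 ± 362 at 12 h of feeding and at 29.7 ± 9.87 at 3 h of feeding. Late larvae without food thus lay between the fed 15 h and fed 12 h levels, and newly hatched larvae were low with or without food. Another collagen gene, col-109, averaged 1304 ± 164 in late starved larvae and 18.3 ± 11.7 in newly hatched starved larvae, at least 59.4-fold higher (adjusted p = 0.013 from the authors' deposited table). Unlike dpy-5 it was also abundant before hatching, at 5128 ± 574 in embryos.

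Embryonic levels are given as a description, since the 15 genes were picked for low levels in newly hatched starved larvae. abu-14 stood at 8084 ± 939 in embryos, abu-7 at 2197 ± 277 and lgc-21 at 1983 ± 189, while dbd-20 stood at 404 ± 73.8 and dpy-5 at 42.9 ± 11.7. The embryo and starved-series arrays shared hybridization days with the newly hatched starved arrays.

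**Figure D2:**
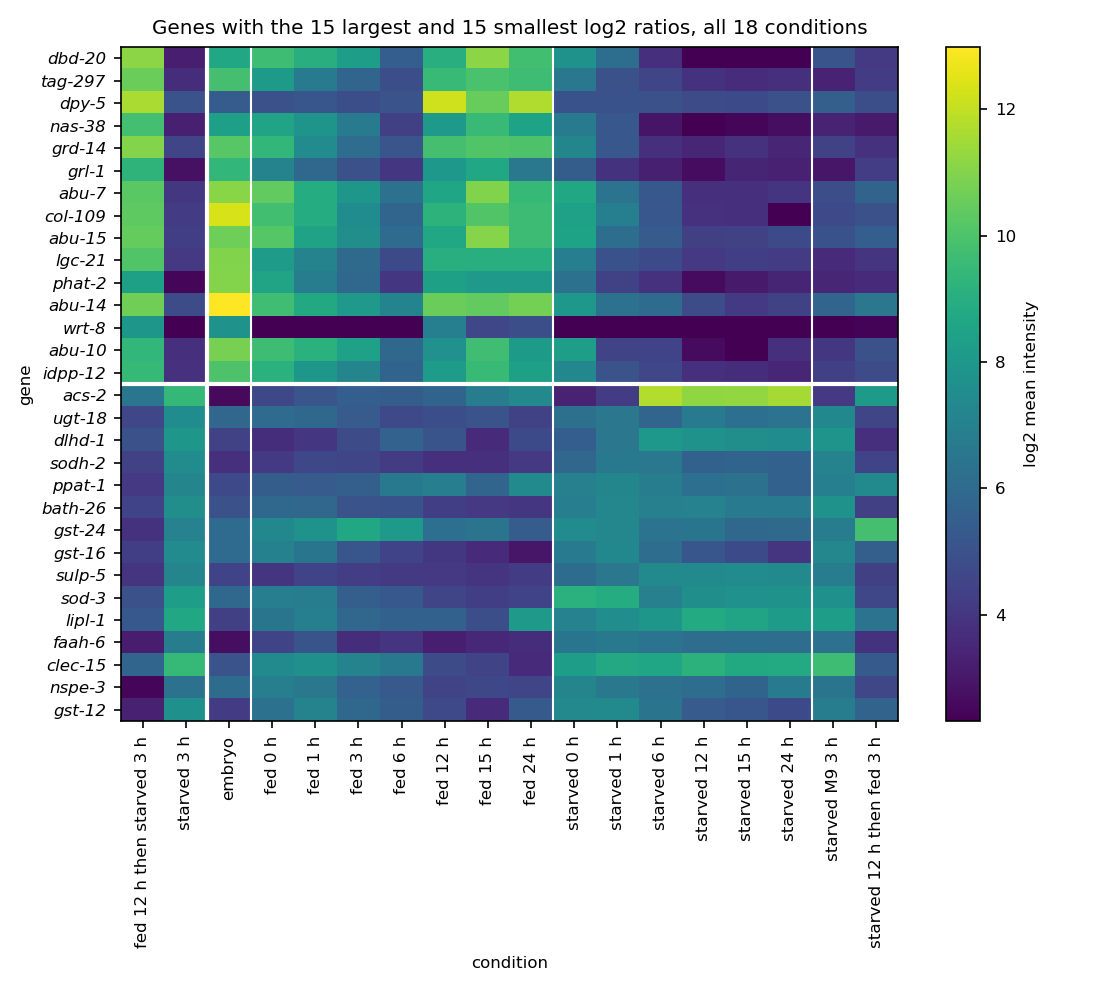
Log2 mean intensity (colour) of the 15 genes with the largest and the 15 with the smallest log2 ratio among those called (rows) in all 18 conditions (columns). The 2 compared conditions are the leftmost columns, starved 3 h standing there rather than in the starved series. Rows above the line are bright in the late larvae and, for most genes, in the fed 12 h to fed 24 h columns and in embryos. Rows below it vary along the starved series, 9 of 15 lying within 2-fold of their starved 3 h level at starved 15 h.

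The abu genes encode prion-like proteins with glutamine- and asparagine-rich stretches, several of them deposited in the pharyngeal cuticle. Of 67 abu and pqn genes measured, 11 were called higher and 1, pqn-48, lower, against 3.26% higher and 3.11% lower over the 17000 genes measured with 1 probe set each. The list's median log2 ratio was 0.70, against 0.00 for all genes. abu-14 averaged 1614 ± 208 in late starved larvae and 27.3 ± 14.7 in newly hatched starved larvae, at least 59.1-fold higher. abu-7, abu-15, abu-10 and abu-8 were at least 55.3-fold, 64.5-fold, 30.5-fold and 37.4-fold higher. Of the list's 67 probe sets 36, and 6 of the 12 called, are of a design whose probes can match several transcripts. They include those of abu-7, abu-15 and abu-8, so these single members are uncertain. The gland gene phat-2, of a family named for pharyngeal glands, was at least 15.4-fold higher. It averaged 338 ± 43.8 in late larvae and 5.47 ± 5.97 in newly hatched larvae. Members of that family went both ways. phat-3 averaged 262.9 in late and 401.0 in newly hatched larvae, and phat-7 averaged 284.7 and 400.7, both named after their values were seen. The pharynx marker list had 0 of 9 called, a median log2 ratio of -0.61 and a summed intensity of 2051 in late larvae and 3004 in newly hatched larvae.

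Hedgehog-related proteins in worms are secreted matrix and signalling proteins of the epidermis. Of 78 hedgehog-related and patched-related genes measured, 9 were called higher (11.5%, against 3.26% over all genes) and 0 lower. Means were higher for 63 of them and lower for 15, with a median log2 ratio of 1.11. grd-14 averaged 2055 in late larvae and 23.2 in newly hatched larvae, at least 88.7-fold higher, and grl-16 averaged 2742 and 69.9, at least 39.2-fold higher. wrt-8 was at 252 ± 68.4 in late starved larvae and at the floor of 5 in newly hatched larvae, at least 11.5-fold higher. In larvae fed 15 h it stood at 23.9 ± 10.8, and at 12 h of feeding at 122 ± 18.3.

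Collagens were called higher in 14 of 157 genes (8.92%, against 3.26% over all genes) and lower in 0, with a median log2 ratio of 0.51. Probe sets whose probes can match several transcripts made up 75 of the 157 and 7 of the 14 called. Astacin proteases, zinc metalloproteases some of which cut the old cuticle, were called higher in 3 of 32 (9.38%). These were nas-38 (at least 40.02-fold), nas-30 (at least 13.5-fold) and nas-36 (at least 5.43-fold), the last needed to complete the moult. Genes of moulting and the apical matrix gave 7 higher of 37 (18.9%) and 0 lower, with a median log2 ratio of 1.57. The cuticlin gene cut-2, detected at both ages, averaged 4278 ± 436 in late starved larvae and 181 ± 34.3 in newly hatched starved larvae, a log2 ratio of 4.56 ± 0.31 (adjusted p = 0.0075 from the authors' deposited table). It stood at 4291 ± 437 in larvae fed for 15 h, within its error of the late starved level. The moulting gene mlt-9 was at least 9.35-fold higher in late starved larvae, at 205 in late larvae and 16.001 in newly hatched larvae, and reached 1397 at 12 h of feeding. mlt-10 was not detected in either condition, at 92.1 ± 26.8 in late starved larvae and 14.2 ± 5.03 in newly hatched starved larvae, and stood at 409 ± 38.3 at 12 h of feeding. The epidermal marker list held 0 called genes of 8, with a median log2 ratio of 0.48, a range of -1.11 to 2.98 and 3 members at least 2-fold higher, and its summed intensity was 981 in late larvae and 994 in newly hatched larvae.

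Of 12 regulators of moulting and its timing 2 were called higher (16.7%), and of 14 heterochronic genes, which set the order of larval stages, 1 was (7.14%), against 3.26% over all genes. bed-3, a zinc finger gene required for moulting, averaged 159 ± 22.3 in late starved larvae and 33.9 ± 7.42 in newly hatched starved larvae, at least 4.68-fold higher (adjusted p = 0.037 from the authors' deposited table). It stood at 390.5 ± 30.6 at 12 h of feeding and at 62.7 ± 12.1 at 15 h, so the late starved level lay between the fed ones. lin-29, a zinc finger gene of later stages, was called at least 1.61-fold higher, at 39.1 in late larvae and 24.3, not detected, in newly hatched larvae. nhr-91, a nuclear receptor gene, was called with a log2 ratio of 0.27 ± 0.26, no larger than about its error.

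The heterochronic genes best known from L1 did not pass the test, although their means were apart. lin-28, an RNA-binding protein that holds early larval fates, averaged 24.6 ± 4.87 in late starved larvae and 101 ± 12.02 in newly hatched starved larvae (adjusted p = 0.15 from the authors' deposited table). In fed larvae lin-28 was at 26.2 ± 5.49 at 15 h and 123 at 3 h, so its mean was lower in the older larvae in both pairs. Age and hours of feeding differ together in both pairs and cannot be told apart. lin-42, the worm homologue of the period genes, averaged 110 ± 17.6 in late starved larvae and 9.63 ± 3.98 in newly hatched larvae (adjusted p = 0.067 from the authors' deposited table). hbl-1 had a log2 ratio of 1.21 ± 0.31 and nhr-25 one of 0.43 ± 0.17, and neither was called. lin-14 and nhr-23 were not detected in either condition.

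The proteasome, which degrades ubiquitin-tagged proteins, had the highest share of called genes among the 51 lists. All 31 measured subunit genes were detected and all 31 had higher means in late starved larvae, 30 of them by at least 2-fold. Calls numbered 22 higher and 0 lower in the authors' deposited table. Probes that can match several transcripts made up 20 of the 31 probe sets and 15 of the 22 called. Log2 ratios ran between 0.92 and 2.31 around a median of 1.40, a median of 2.64-fold. The regulatory-particle subunit rpn-12 averaged 415 ± 30.3 in late starved larvae and 121 ± 12.8 in newly hatched starved larvae, a log2 ratio of 1.77 ± 0.19. Of the catalytic-core genes, pbs-6 averaged 896 ± 45.6 in late starved larvae and 307 ± 17.2 in newly hatched larvae, and pbs-2 averaged 588 ± 39.4 and 201 in the same order. Median subunit intensity was 607 in late starved larvae, 586 at 15 h of feeding and 803 at 12 h of feeding. Younger larvae were lower on both diets, at a median of 244 when starved for 3 h and 408 when fed for 3 h.

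**Figure D3:**
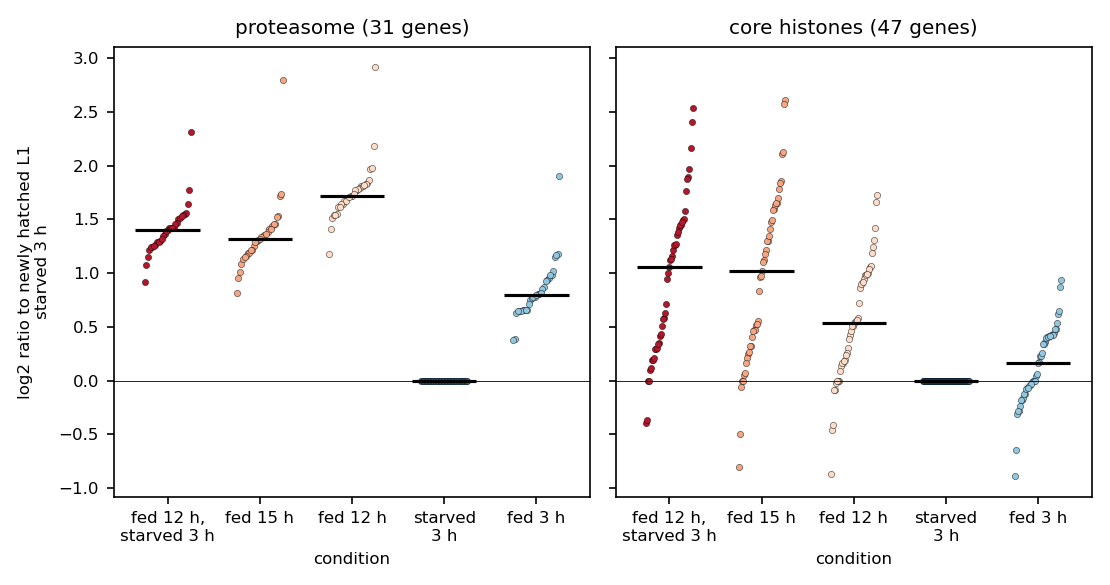
Log2 ratio of each proteasome gene (left, 31 genes) and core histone gene (right, 47 genes) to its level in newly hatched larvae starved 3 h, in 5 conditions, with the black bar at the median. Late larvae starved after 12 h of feeding sit at medians of 1.40 and 1.05, close to larvae fed for 15 h.

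Core histone genes were also higher as a group. Of 47 measured, 12 were called higher (25.5%, against 3.26% over all genes) and 0 lower. Means were higher for 43, and the median log2 ratio was 1.05. his-10 averaged 285 ± 17.7 in late starved larvae and 63.4 ± 7.30 in newly hatched starved larvae, and stood at 218 ± 17.8 at 15 h and 119.4 ± 16.7 at 12 h of feeding. Histone genes are near-identical copies, and 40 of the 47 probe sets, among them all 12 called, are of a design whose probes can match several transcripts, so single members are uncertain.

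Of 32 DNA replication genes 3 were called higher (9.38%, against 3.26% over all genes), rpa-2, cdc-6 and orc-2, with log2 ratios of 0.66, 0.62 and 0.31, and the list's median was -0.15. mcm-2, a helicase subunit, averaged 171 in late starved larvae and 175 in newly hatched starved larvae. pcn-1, the replication clamp, averaged 362 and 438 in that order, and it stood at 374 in larvae fed 15 h and 920 in larvae fed 3 h. Among 42 cell cycle genes 1 was called (2.38%), cyk-4, a cytokinesis gene, with a log2 ratio of 0.82 ± 0.33. The G1 cyclin gene cyd-1 averaged 93.8 in late larvae and 173 in newly hatched larvae and was not called. cki-1, an inhibitor of G1 exit, had a log2 ratio of 0.28 ± 0.16 and was not called.

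Some protein synthesis and folding genes were higher. Of 59 translation factor and tRNA synthetase genes 6 were called higher (10.2%, against 3.26% over all genes) and 0 lower. Their median log2 ratio was 0.35. mars-1 and dars-1, tRNA synthetases for methionine and aspartate, had log2 ratios of 0.68 ± 0.13 and 0.62 ± 0.09, and eif-3.C, an initiation factor subunit, had 0.65 ± 0.13. Of 60 ribosomal protein genes only rps-18 was called, with a log2 ratio of 0.30 ± 0.07. Ribosome assembly genes leaned the other way, with a median of -0.35 and 0 called of 18. Of 35 chaperone genes 10 were called higher (28.6%) and 0 lower. They included pdi-2, pdi-3 and hsp-3 of the endoplasmic reticulum, with log2 ratios of 1.59 ± 0.14, 1.42 ± 0.10 and 1.19 ± 0.11, and the small heat shock gene hsp-12.1 at least 8.21-fold higher.

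**Figure D4:**
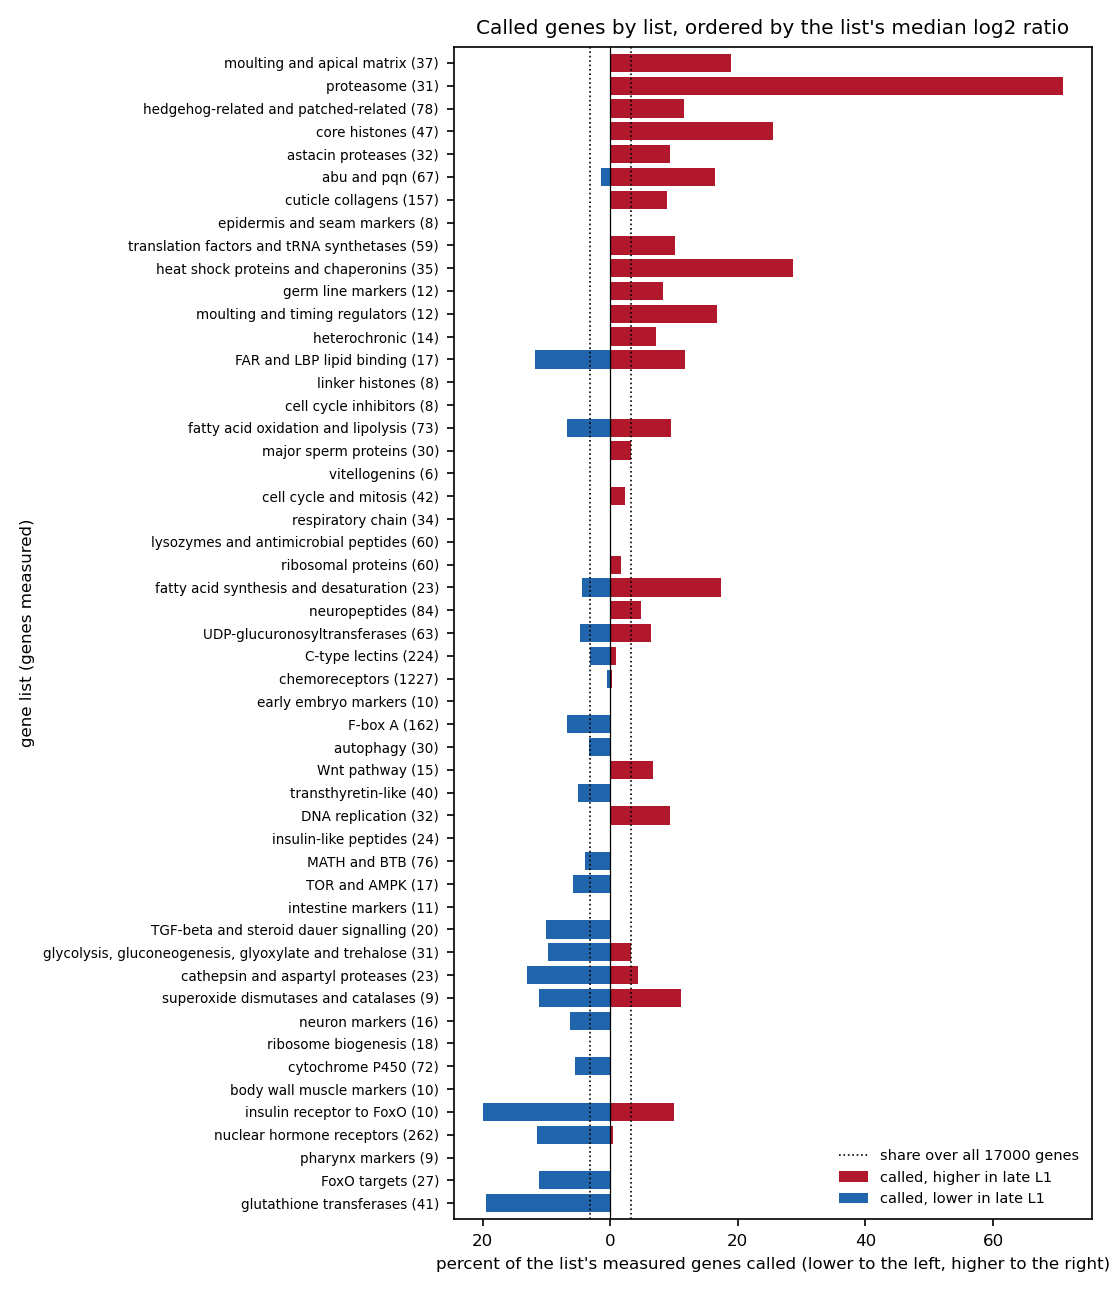
Share of each list's measured genes called higher (bars to the right, red) and lower (bars to the left, blue) in late starved larvae against newly hatched starved larvae, for 51 lists ordered by median log2 ratio. Dotted lines mark the shares over all 17000 genes, 3.26% and 3.11%, and the proteasome reaches 71.0%.

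The largest decreases in late larvae included glutathione transferases, a lipase and a superoxide dismutase. The 15 named genes with the smallest ratios among those called were gst-12, nspe-3, clec-15, faah-6, lipl-1, sod-3, sulp-5, gst-16, gst-24, bath-26, ppat-1, sodh-2, dlhd-1, ugt-18 and acs-2. All 15 were detected in newly hatched starved larvae and 13 were not detected in late larvae, clec-15 and acs-2 being the others.

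sod-3, a mitochondrial superoxide dismutase and a standard readout of DAF-16, averaged 31.2 ± 10.9 in late starved larvae and 302 ± 38.8 in newly hatched starved larvae, at least 9.66-fold lower (adjusted p = 0.019 from the authors' deposited table). Larvae fed for 15 h had 19.7 ± 8.90 and larvae fed for 3 h had 46.3 ± 13.1, and the late level, not detected, was not ranked against them. pck-1, which makes phosphoenolpyruvate for gluconeogenesis, averaged 651 ± 41.9 in late starved larvae and 2449 ± 130 in newly hatched starved larvae, a log2 ratio of -1.91 ± 0.12. mtl-1, a metallothionein, averaged 504 ± 47.7 in late starved larvae and 967 ± 79.7 in newly hatched starved larvae, and stood at 128 ± 19.2 in larvae fed 15 h. These 3 were the only called genes of 27 DAF-16 targets (11.1% lower, against 3.11% over all genes), 0 being called higher. The list's median log2 ratio was -0.71. Ratios ran from -3.27 to 4.91, with 22 members below 0 and 5 above it, 2 of them at least 2-fold higher. Other members were apart in mean without a call: hsp-12.6 stood at the floor of 5 in late larvae and at 32.8 ± 5.77 in newly hatched larvae, with an adjusted p of 1 from the authors' deposited table. icl-1, of the glyoxylate cycle, was among those on the other side, at 4910 ± 508 in late starved larvae and 2544 ± 274 in newly hatched starved larvae.

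Within the insulin pathway itself, 2 of 10 genes were called lower (20%) and 1 higher (10%), against 3.11% and 3.26% over all genes. The kinase genes pdk-1 and akt-1 were lower, with log2 ratios of -1.05 ± 0.11 and -0.65 ± 0.12, and the kinase gene sgk-1 higher, with 0.41 ± 0.12. daf-16 had a log2 ratio of -0.23 ± 0.24 and was not called, and daf-2 was not detected at either age. None of 24 insulin-like peptide genes was called, including ins-7 and daf-28. aakg-3, a gamma subunit of AMP-activated kinase, was at least 4.95-fold lower in late larvae and was the only one of 17 TOR and AMPK genes called (5.88%). atg-13 was the only one of 30 autophagy genes called, with a log2 ratio of -0.77 ± 0.11. That is 3.33% lower, near the 3.11% over all genes, and counts in lists this small say little about the pathways.

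Glutathione transferases, nuclear hormone receptors and F-box A genes held more lower than higher calls. UDP-glucuronosyltransferases, also of detoxification, had 4 higher (6.35%) and 3 lower (4.76%) of 63, against 3.26% and 3.11% over all genes. Their median log2 ratio was 0.00. Glutathione transferases gave 8 lower (19.5%) and 0 higher of 41, with a median log2 ratio of -0.85. gst-12 averaged 9.93 ± 6.25 in late starved larvae and 205 ± 31.8 in newly hatched starved larvae, at least 10.1-fold lower, and gst-20 averaged 271 ± 27.8 and 1499 ± 105 in the same order. Cytochrome P450 genes gave 4 lower (5.56%, against 3.11% over all genes) and 0 higher of 72, led by cyp-34A5 and cyp-25A2. Nuclear hormone receptors gave 30 lower (11.5%) and 1 higher (0.38%) of 262, with a median of -0.51. nhr-62, a receptor known for its part in dietary restriction, averaged 77.4 ± 10.2 in late starved larvae and 296 ± 22.9 in newly hatched starved larvae, a log2 ratio of -1.94 ± 0.22. F-box A genes, adaptors for protein ubiquitination, gave 11 lower (6.79%) and 0 higher of 162. fbxa-69 and fbxa-24 led them, with log2 ratios of -2.80 ± 0.26 and -2.64 ± 0.26. The 15 of smallest ratio also held clec-15, a C-type lectin gene, at 55.3 ± 9.62 in late starved larvae and 706 ± 48.7 in newly hatched starved larvae.

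Lipid genes were called in both directions. Of 73 genes for fatty acid oxidation and lipolysis 7 were called higher (9.59%) and 5 lower (6.85%). Over all genes the shares were 3.26% and 3.11%. acdh-1, an acyl-CoA dehydrogenase of branched-chain amino acid and propionate breakdown, averaged 3470 ± 279 in late starved larvae and 211 ± 29.4 in newly hatched starved larvae, a log2 ratio of 4.04 ± 0.23 (adjusted p = 0.011 from the authors' deposited table). It stood at 2831 ± 231 in larvae fed 15 h and at 486 ± 78.8 in larvae fed 3 h. In larvae that never ate it was also higher at later times, at 1702 ± 223 after 15 h without food. ech-6, an enoyl-CoA hydratase of the same breakdown route, averaged 3607 ± 205 in late starved larvae and 934 ± 61.7 in newly hatched starved larvae. After 15 h without food from hatching it stood at 1899 ± 114. The thiolase gene kat-1, named after its values were seen, had a log2 ratio of 1.40 ± 0.12. lipl-1, a lysosomal lipase raised by fasting, went the other way, at 38.8 ± 9.49 in late starved larvae and 421 ± 43.5 in newly hatched starved larvae, at least 10.9-fold lower.

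Lipid synthesis gave 4 higher (17.4%) and 1 lower (4.35%) of 23, against 3.26% and 3.11% over all genes. fat-7, a stearoyl-CoA desaturase, averaged 230 ± 28.5 in late starved larvae and 36.2 ± 10.2 in newly hatched starved larvae, at least 6.36-fold higher, while fed larvae had 482 ± 74.4 at 15 h. The elongase gene elo-5 averaged 1442 ± 103 in late starved larvae and 231 ± 25.6 in newly hatched starved larvae. After 6 h without food from hatching it stood at 1923 ± 133, above the late level. mdt-15, a Mediator subunit that drives desaturase genes, was called lower, with a log2 ratio of -1.17 ± 0.21. far-7, a fatty acid and retinol binding protein, averaged 178 ± 15.6 in late starved larvae and 1205 ± 63.9 in newly hatched starved larvae, a log2 ratio of -2.76 ± 0.15 (adjusted p = 0.0075 from the authors' deposited table).

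A few lipid and detoxification genes differed in direction when newly hatched larvae starved in M9 took the place of those in S-complete. The M9 arrays shared no hybridization day with either condition, so medium and day cannot be told apart. acs-2, a mitochondrial acyl-CoA synthetase, averaged 91.9 ± 15.8 in late starved larvae, against 684 ± 60.8 in newly hatched larvae starved in S-complete and 17.2 ± 8.68 in those starved in M9. Likewise fmo-2, a flavin monooxygenase, averaged 178 ± 35.6 in late starved larvae, 1317 ± 150 in newly hatched larvae in S-complete and 18.1 in those in M9. Both were called lower in late larvae against S-complete. Neither was detected in M9, and against the lowest detected mean there, 23.6, late larvae were at least 3.898-fold higher for acs-2 and at least 7.56-fold higher for fmo-2, without a call. adh-1, an alcohol dehydrogenase, was detected in all 3 conditions and had log2 ratios of -1.70 ± 0.26 against S-complete, not called, and 1.76 against M9.

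The responses to 3 h without food are given side by side for each age, and share the late or the newly hatched starved condition with the comparison above. In newly hatched larvae, starved 3 h against fed 3 h, 232 probe sets were called by the authors' deposited table (1.03%), 138 higher and 94 lower. In late larvae, the authors' deposited table gave 1 called probe set against 15 h of feeding (0.00443%) and 6 against 12 h of feeding (0.0266%). The one against 15 h of feeding was pgp-1, a P-glycoprotein transporter gene, at 13.9 ± 5.55 in late starved larvae and 78.1 ± 12.32 in larvae fed 15 h. Counted by size alone, 201 probe sets were at least 2-fold higher and 249 at least 2-fold lower in late starved larvae than in larvae fed 15 h. The like counts for newly hatched larvae against 3 h of feeding were 868 and 925, each requiring detection in the condition with the higher mean. The fed arrays were hybridized on 3 other days that neither starved condition shared, so day and food cannot be told apart within either age. In late larvae the stage label differed as well, L1-L2 for fed 15 h and L1 for starved.

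The difference between the ages in that response was tested directly, as the log2 ratio of late starved over fed 15 h minus that of newly hatched starved over fed 3 h, with propagated errors and 8 degrees of freedom. The test called 0 probe sets (0% of those tested), with 2630 at an unadjusted p under 0.05 and a lowest adjusted p of 0.051. The genes with the largest differences relative to error, chosen after their values were seen, all shared that adjusted p. far-7 was 1.52-fold higher in late starved than fed 15 h larvae and 16.9-fold higher in newly hatched starved than fed 3 h larvae, a difference of -3.48 ± 0.33 on the log2 scale. gln-3, a glutamine synthetase gene, showed 1.33-fold and 4.63-fold in that order, a difference of -1.80 ± 0.21. catp-3, of the cation-transporting ATPases, was at 317 ± 59.3 in late starved larvae, 899 ± 77.4 in larvae fed 15 h and 241 ± 64.4 in larvae fed 12 h, against 421 ± 43.0 in newly hatched starved larvae and 98.0 ± 17.05 in larvae fed 3 h. Its direction in late larvae therefore turned on which fed condition was used.

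Among genes lower without food, trap-4 of the translocon at the endoplasmic reticulum averaged 1128 ± 47.9 in late starved larvae and 1252 ± 52.1 in larvae fed 15 h. In newly hatched larvae it averaged 362 ± 19.7 without food and 897 ± 39.4 with it, a difference between the ages of 1.16 ± 0.13. ostd-1, of the oligosaccharyltransferase, differed by 0.97 ± 0.12 and pars-1, a prolyl-tRNA synthetase, by 1.05 ± 0.13. hil-1, a linker histone gene, was 2.101-fold higher in late starved than fed 15 h larvae and 19.0-fold higher in newly hatched starved than fed 3 h larvae, a difference of -3.17 ± 0.58 that was not called. pck-1 was 0.95-fold and 2.33-fold in that order. By contrast mtl-1 was higher without food at both ages, 3.95-fold in late larvae and 7.14-fold in newly hatched larvae, and the difference of -0.85 ± 0.44 was not called.

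**Figure D5:**
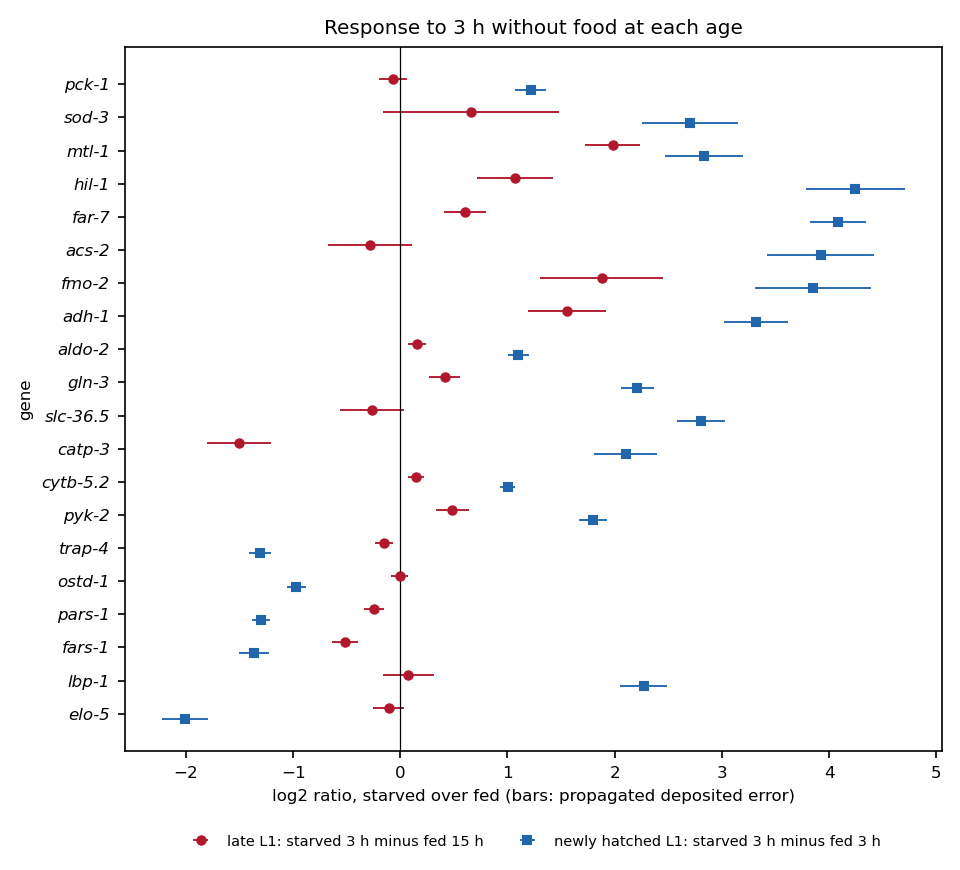
Log2 ratio of starved over fed, with propagated deposited error, for 20 genes, some chosen after their values were seen: late larvae starved 3 h over fed 15 h (red circles) and newly hatched larvae starved 3 h over fed 3 h (blue squares). The genes include those with the largest differences between the ages, so the gap between their points was set by that choice; far-7 lies at 0.60 in late larvae and 4.08 in newly hatched larvae.

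Fed larvae of both ages were compared too, with the recomputed test in place of the deposited p. Comparing larvae fed for 15 h with larvae fed for 3 h shares neither condition with the starved comparison. There 1182 of the 1352 called probe sets with unequal means (87.4%) differed in the same direction. The like shares were 66.9% over all worm probe sets and 71.4% over those detected in either starved condition. Across 22548 probe sets the log2 ratios of the starved and the fed age comparisons had a Pearson correlation of 0.65 and a Spearman correlation of 0.49, given as a description because probe sets are not independent and the cultures share their series. Recomputed from the deposited means and errors with 4 degrees of freedom, the fed age comparison called 0 probe sets (0%), with 3037 at an unadjusted p under 0.05. That same test also called 0 between the starved ages, with 5116, so the 0 is not to be set against the 1353 calls. The proteasome's median log2 ratio was 1.40 between the starved ages and 0.51 between the fed ages, and that of core histones 1.05 and 0.76. For DNA replication the starved ages differed by a median of -0.15 and the fed ages by -0.91, and for DAF-16 targets by -0.71 and 0.15.

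Calls among markers of cell types are read beside the shares over all genes, 3.26% higher and 3.11% lower. Lists this small can show little by calls. Body wall muscle, pharynx, intestine and epidermis markers gave 0 calls of 10, 9, 11 and 8 genes, and vitellogenins and early embryo markers 0 of 6 and 10. The intestinal genes elt-2 and ges-1 had log2 ratios of -0.22 ± 0.30 and -0.23 ± 0.16. All 10 muscle markers had lower means in late larvae, with a median log2 ratio of -0.41. Summed muscle marker intensity was 14945 in late larvae and 20291 in newly hatched larvae. Of 11 intestine markers 9 had lower means, with a median of -0.23. Lower means were also found for 6 of 9 pharynx and 3 of 8 epidermis markers. Of 16 neuron markers 1 was called lower (6.25%), unc-17, the acetylcholine vesicle transporter, with a log2 ratio of -0.88 ± 0.16. The median log2 ratio of the 16 was -0.33, and 11 had lower means. Of 12 germ line markers 1 was called higher (8.33%), glh-1, a Vasa-like helicase, at 181 in late larvae and 63.8 in newly hatched larvae. Means were higher for 9 of the 12 and lower for 3. The part of cell composition in the gene groups above was not tested.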

How the data were processed

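Messenger RNA of whole larvae was measured on Affymetrix C. elegans arrays. Per the deposited read-me and file headers, the authors gave mean intensity of 3 replicates per condition on a linear scale, with values under 5 raised to 5, and an intensity error of each mean. A detection score deposited for each mean gives the significance of its signal over background, and values under 1e-10 counted as detected. The deposited p-value table holds the authors' tests between pairs of conditions, and no source used here gives its scale, the software or the normalization. Nothing tells whether the errors hold the spread between cultures.

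Log2 ratios, propagated errors and Benjamini-Hochberg adjusted p-values over 22548 worm probe sets (77 controls left out) were computed with Python 3.11.15, numpy 2.4.6, pandas 2.3.3 and scipy 1.17.1. Recomputed tests used 4 degrees of freedom for a pair of conditions and 8 for the difference of responses. Of 20319 probe sets mapped to a single gene in WormBase release 180, 19751 had a current name in RefSeq (WBcel235) or the platform annotation, 227 on which these differed being unnamed. Lists used 1 probe set per gene, the one with the highest mean. Named genes were the 15 largest and 15 smallest log2 ratios among called genes detected in the higher condition, up to 4 called per list and direction, and 35 fixed genes. col-41, kat-1, phat-3, phat-7 and the genes of the response test were added after their values were seen. The members and the 51 lists were chosen with earlier results of these data known. The scripts' tests were tried on simulated data. The promoter motif search planned was not run, as no promoter sequences were used here. Alternatives were other scalings, an offset of 16, detected probe sets only, recomputed and raised errors, and other newly hatched conditions.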

Additional observations from a re-analysis of the deposited data

How the results depend on the processing

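Each condition is 1 deposited mean, so no replicate could be left out. No paired analysis was possible because each condition has 1 deposited column with no replicate number. Requiring detection in either condition, which shortens the list over which p is adjusted, gave 2603 calls in place of 1353 and 1246 in place of 774 calls of at least 2-fold, and a threshold of 0.01 left 49 and 41. Recomputing p from the deposited errors gave 0 calls on the linear scale, on the log2 scale, with raised errors and against newly hatched larvae in M9, at 1 h or at 6 h, with a lowest adjusted p between 0.053 and 0.090. A normal distribution in place of 4 degrees of freedom, chosen after seeing the data, gave 5845 calls (2556 of at least 2-fold, 1255 shared with the 1353) and 4776 (2325) against M9. In simulated arrays, with each error estimated from 3 draws per condition, it called 876 of 22348 unchanged probe sets. Whether the deposited errors behave in that way is not known, so these counts may hold false calls of unknown number. The difference of responses gave 0 calls, but 21 with 12 h of feeding as the fed late condition, 33 with an offset of 16, 17 after quantile normalization, 47 over detected probe sets, 0 with raised errors and 1501 with the normal distribution. The fed age comparison gave 0 calls except 3183 with the normal distribution. Direction reversed for some genes. Against M9 these were acs-2 (2.42), fmo-2 (3.30), adh-1 (1.76), vit-2 (-0.15), ins-7 (-0.35), daf-2 (-0.61) and lin-35 (0.072). Against 1 h they were acs-2 (2.31), cpr-2 (0.56), ges-1 (0.73), daf-28 (0.30), adh-1 (0.029) and daf-2 (-0.32). Against 6 h they were elo-5 (-0.41), ugt-31 (-0.18), let-767 (-0.38), icl-1 (-0.42), lbp-3 (-0.14), ins-7 (-0.29), mcm-2 (0.30), rnr-1 (0.15) and ugt-12 (0.44). After quantile normalization daf-2 was at -0.021. The cause of these changes was not tested. Averaging a gene's probe sets moved no list median by 0.5 or across 0. Low signal limits 192 of the 691 higher and 112 of the 661 lower calls, whose other condition was not detected.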

Other observations

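Calls in further lists are read beside the shares over all genes, 3.26% higher and 3.11% lower. Of 84 neuropeptide genes 4 were called higher and 0 lower, nlp-67, nlp-33, nlp-20 and flp-2, with nlp-33 at 1958 in late starved larvae and 897 ± 71.3 in newly hatched starved larvae. C-type lectins gave 2 higher and 7 lower of 224, and chemoreceptors 3 higher and 6 lower of 1227. Aspartyl and cathepsin proteases gave 1 higher, asp-13, and 3 lower, cpr-2, asp-6 and asp-12, of 23. A list of TGF-beta genes and steroid dauer signalling genes gave 2 lower of 20. These were daf-5 and sma-9, with log2 ratios of -1.14 ± 0.15 and -0.97 ± 0.15. Of 31 genes of sugar metabolism 1 was higher, hxk-1, and 3 were lower, pck-1, pyk-2 and aldo-2. Lysozymes and antimicrobial peptides, respiratory chain genes and linker histones gave 0 calls of 60, 34 and 8. Of 9 superoxide dismutases and catalases sod-2 was called higher, at 641 in late larvae and 401 in newly hatched larvae, and sod-3 lower.

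The 1 other condition hybridized on the day of the late larvae, larvae starved 12 h then fed 3 h, gives same-day values. There dpy-5 stood at 29.4 ± 9.83, col-109 at 31.7 ± 14.9, pbs-6 at 653 ± 29.9 and sod-3 at 24.4 ± 9.73. Other proteasome genes lay nearer their late levels, pbs-2 at 576 ± 47.3, rpn-9 at 380 ± 28.9 and rpn-12 at 365 ± 25.8. Of the 691 called higher, 517 were also higher in late larvae than in this condition. Of the 661 called lower, 391 were also lower. Over all 22548 worm probe sets, 14279 kept their direction. The late starved condition is shared with the comparison above, so these values and counts are given as a description.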
